A study of Mus musculus with 4 samples.

Results

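The T-cell receptor complex and its partners, 10 genes in all, were followed across 3 mouse leukemias and 1 normal bone marrow: the CD3 chains (Cd3d, Cd3e, Cd3g and Cd247), the pre-T-cell receptor alpha chain (Ptcra), the coreceptors (Cd4, Cd8a and Cd8b1) and the T-cell surface proteins Thy1 and Cd5. They were chosen by name, as every probe set annotated to exactly 1 of these genes, which gave 10 genes of 18193 and 18 probe sets of 34945. The groups were a mixed lineage leukemia from hematopoietic stem and precursor cells transduced with both AF4-MLL and MLL-AF4, a proB acute lymphoblastic leukemia (proB ALL) from such cells with AF4-MLL, a biphenotypic leukemia with B-cell and T-cell features (B/T BAL) from such cells with AF4-MLL, and normal bone marrow. AF4-MLL and MLL-AF4 are the reciprocal fusions of the histone methyltransferase MLL and the elongation factor AF4. The title of the series names C57BL6 mice, and no source used here gives their age. Leukemic cells came from the marrow of moribund mice and were typed by flow cytometry without sorting, so each array holds whatever marrow cells remained beside the leukemia. Each group had 1 array, so a value has no replicate error, and the 3 comparisons with normal marrow share its 1 array.

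The CD3 chains are the signalling part of the T-cell receptor. Its antigen-binding chains have short tails, and pairs of Cd3e with Cd3d, Cd3e with Cd3g, and Cd247 (zeta) with itself carry the tyrosine motifs (ITAMs) that the kinase Lck phosphorylates and Zap70 binds. In the thymus, precursors that have rearranged a beta chain pair it with Ptcra and CD3 to form the pre-T-cell receptor, after which they express both CD4 and CD8. Cd247 also serves natural killer (NK) cell receptors, and Thy1 is found on T cells, innate lymphoid cells and some stromal cells.

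The 3 CD3 chain genes Cd3g, Cd3d and Cd3e lie in 1 cluster on mouse chromosome 9. The start sites of Cd3g and Cd3d lie 1355 bases apart on opposite strands, and that of Cd3e lies 27825 bases from that of Cd3d. The 250 bases before the start site of these 3 genes and of Ptcra are shown because Cd3d and Cd3g were high on both the B/T BAL and the proB ALL array, whereas Cd3e, in the same cluster, and Ptcra were high on the B/T BAL array alone. Capitals mark the E-box, CANNTG, the motif of basic helix-loop-helix factors, which reads the same on both strands. The sequences are RefSeq's for GRCm38.p6, 5′ to 3′ on the strand of the gene.
Cd3g, chr9:44980432-44980681, minus strand: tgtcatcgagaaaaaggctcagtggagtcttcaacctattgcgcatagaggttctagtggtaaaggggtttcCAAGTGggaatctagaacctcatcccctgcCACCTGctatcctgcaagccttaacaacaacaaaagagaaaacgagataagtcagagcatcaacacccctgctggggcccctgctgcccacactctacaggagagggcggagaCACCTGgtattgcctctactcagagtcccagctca
Cd3d, chr9:44981536-44981785, plus strand: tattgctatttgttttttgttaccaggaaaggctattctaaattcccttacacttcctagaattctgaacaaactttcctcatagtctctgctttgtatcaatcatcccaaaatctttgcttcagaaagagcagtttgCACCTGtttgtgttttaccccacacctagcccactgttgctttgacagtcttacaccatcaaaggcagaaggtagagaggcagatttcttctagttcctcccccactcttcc
Cd3e, chr9:45009612-45009861, minus strand: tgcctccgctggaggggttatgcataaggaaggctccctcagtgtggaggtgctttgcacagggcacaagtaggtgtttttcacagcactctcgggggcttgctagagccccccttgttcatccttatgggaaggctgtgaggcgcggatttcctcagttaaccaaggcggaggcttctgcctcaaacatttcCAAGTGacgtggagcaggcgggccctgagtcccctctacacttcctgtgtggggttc
Ptcra, chr17:46763713-46763962, minus strand: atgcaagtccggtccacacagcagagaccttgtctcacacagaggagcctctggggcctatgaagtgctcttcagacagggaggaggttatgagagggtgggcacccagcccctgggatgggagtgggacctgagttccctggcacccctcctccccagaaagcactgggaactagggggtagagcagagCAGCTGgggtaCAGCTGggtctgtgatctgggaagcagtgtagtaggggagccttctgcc
The E-box was found 3 times before Cd3g, 1 time before Cd3d, 1 time before Cd3e and 2 times before Ptcra. The share of G and C ran from 41.2% before Cd3d to 60.4% before Ptcra. The E-box is common, since 66.2% of all 32851 promoter windows of this length hold it. The letters TATAAA, searched on both strands, were in none of these 4 windows and in 12.4% of all windows. The motif of the GATA factors, spelled AGATAA and searched on both strands, was found 1 time before Cd3g and 0 times in the other 3 windows, against 9.99% of all windows. The table held windows for 7 of the 10 genes, without Cd4, Cd8b1 and Thy1.

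Values are MAS5 signals on a linear scale with a trimmed mean of 1000 on each array. A floor of 189, the median of all signals over the 4 arrays, separates measured from dim signals, and a gene is read from its brightest probe set (highest mean log2 value). All 10 genes exceeded the floor on at least 1 array and were among the 14012 genes tested. Differences between arrays were taken on log2(signal + 51.4), the added 51.4 being the 25th percentile of signals, and every count of genes at least 2-fold apart uses that log2 scale. Folds given for single genes are ratios of the signals themselves, written "at least" where the dimmer side was at or below the floor and was set to it, so they can fall on the other side of 2-fold. The floor was exceeded by 57.4% of probe sets in the mixed lineage leukemia, against 46.3% to 49.0% on the other 3 arrays. The 3′ to 5′ ratio of the Actb control probe sets was 3.10 for mixed lineage leukemia, 2.47 for proB ALL, 4.72 for B/T BAL and 1.87 for normal marrow. That of Gapdh was 1.24 for mixed lineage leukemia, 1.28 for proB ALL, 1.14 for B/T BAL and 0.944 for normal marrow. The part of these differences between arrays in the results below was not tested. Markers also went against a label: on the array labelled proB ALL, 11 of 12 tested B-cell markers were at least 2-fold lower than in normal marrow and all 15 NK and cytotoxic genes at least 2-fold higher, and on the array labelled B/T BAL all 12 B-cell markers were lower.

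All 10 genes had their highest signal on the B/T BAL array, as did 28.1% of all genes tested. Ptcra and Cd4 passed the filter through this array alone, so for them a highest signal there was fixed in advance. The counts of genes higher in B/T BAL, here and below, include both. Of the 10, 8 were at least 2-fold above each of the other 3 arrays, against 5.02% of all genes tested, and Cd247 and Thy1 were the exceptions. By probe set, 16 of 18 were highest on the B/T BAL array. In B/T BAL all 10 genes exceeded the floor, against 5 in mixed lineage leukemia, 4 in the proB ALL and 8 in normal marrow. In bulk marrow, fewer cells of a type and less RNA per cell cannot be told apart.

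**Figure D1:**
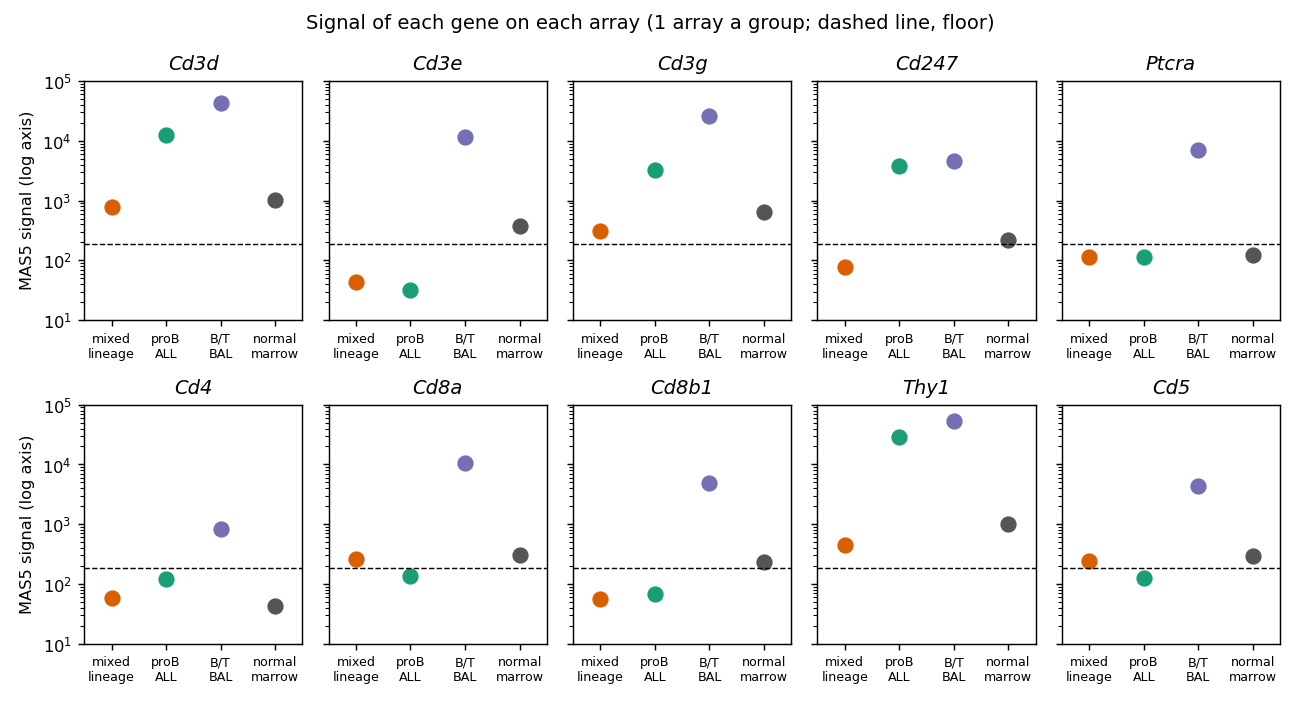
MAS5 signal (log axis) of each of the 10 genes on the 4 arrays, 1 point per array, with the floor of 189 as a dashed line. The B/T BAL point is the highest in every panel, and the proB ALL point lies near it for Cd247 and Thy1 but below the floor for Cd3e, Ptcra, Cd4, Cd8a, Cd8b1 and Cd5.

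Among the CD3 chains, Cd3d had a signal of 765 in mixed lineage leukemia, 12582 in the proB ALL and 43499.8 in B/T BAL, against 1002 in normal marrow. Cd3d was thus 12.6-fold higher in the proB ALL and 43.4-fold higher in B/T BAL than in normal marrow. Cd3g had 314 in mixed lineage leukemia, 3290.5 in the proB ALL and 25806.5 in B/T BAL, against 632 in normal marrow. The order of the arrays was the same for these chains, with folds over normal marrow of 5.21 in the proB ALL and 40.8 in B/T BAL for Cd3g. Cd3e, the chain that pairs with each of them, had 43.8 in mixed lineage leukemia, 32.3 in the proB ALL and 11474 in B/T BAL, against 372 in normal marrow. It was 30.9-fold higher in B/T BAL than in normal marrow but below the floor on the mixed lineage and proB ALL arrays, at least 1.97-fold lower on each. Cd3e is measured by 1 probe set on this array, so no second probe set bears on its low signal in proB ALL.

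Cd247, the zeta chain, had 78.2 in mixed lineage leukemia, 3788 in the proB ALL and 4601 in B/T BAL, against 216 in normal marrow. Its signals in the proB ALL and B/T BAL lay close together, 17.5-fold and 21.3-fold above normal marrow. Of its other 3 probe sets, 1452539_a_at had 219 in mixed lineage leukemia, 688 in the proB ALL and 897 in B/T BAL, against 67.7 in normal marrow. 1420716_at had 55.9 in mixed lineage leukemia, 201 in the proB ALL and 468 in B/T BAL, against 129 in normal marrow. Both were higher in the proB ALL and B/T BAL than on the other arrays, as with the probe set used, although on 1452539_a_at the mixed lineage leukemia also lay above normal marrow, the reverse of its order on the set used. The remaining 1426079_at stayed below the floor on all 4 arrays, between 5.03 and 131. The log2 difference of Cd247 from normal marrow was 3.84 in the proB ALL and 4.12 in B/T BAL, and 1.61 and 1.74 with the mean over its probe sets.

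Ptcra had 115 in mixed lineage leukemia, 114 in the proB ALL and 7093 in B/T BAL, against 123 in normal marrow. It exceeded the floor on the B/T BAL array alone, where it was at least 37.6-fold higher than on each of the other arrays. Rag1, a subunit of the recombinase that assembles receptor genes, had 19.8 in mixed lineage leukemia, 1.76 in the proB ALL and 14987.5 in B/T BAL, against 1721 in normal marrow. Dntt, the polymerase that adds bases at the joints, had 314 in mixed lineage leukemia, 82.8 in the proB ALL and 11061 in B/T BAL, against 2913 in normal marrow. The Dntt probe set is of the x kind, which may hybridise to other transcripts. Unlike Ptcra, these recombination genes were also measured in normal marrow, where B-cell precursors use them as well.

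All 3 coreceptor genes exceeded the floor on the B/T BAL array. Cd8a, the alpha chain of CD8, had 258 in mixed lineage leukemia, 135 in the proB ALL and 10607 in B/T BAL, against 307 in normal marrow. Cd8b1, the beta chain of the form of CD8 on thymus-derived T cells, had 55.4 in mixed lineage leukemia, 68.6 in the proB ALL and 4987 in B/T BAL, against 236 in normal marrow. The CD8 genes were 34.6-fold (Cd8a) and 21.1-fold (Cd8b1) higher in B/T BAL than in normal marrow. Cd4, the coreceptor for MHC class II, had 57.2 in mixed lineage leukemia, 122 in the proB ALL and 848 in B/T BAL, against 42.9 in normal marrow. It exceeded the floor on the B/T BAL array alone, at least 4.50-fold higher than on the others, and its second probe set, 1427779_a_at, stayed below the floor on all arrays, between 8.68 and 56.6.

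The 5 probe sets of Cd8a were all highest in B/T BAL but differed in size. 1425335_at had 542 in mixed lineage leukemia, 79.5 in the proB ALL and 4912 in B/T BAL, against 303 in normal marrow, so that on it the mixed lineage leukemia lay above normal marrow. The signals of 1451673_at were 38.5 in mixed lineage leukemia, 122 in the proB ALL and 2181 in B/T BAL, against 124 in normal marrow, although the annotation ties it to the same transcript record as 1425335_at. 1440811_x_at had 1635 in B/T BAL and lay below the floor elsewhere. The exception was 1440164_x_at, with 57.5 in mixed lineage leukemia, 203 in the proB ALL and 613 in B/T BAL, against 541 in normal marrow, where B/T BAL and normal marrow differed by a log2 value of 0.17. The suffix x marks probe sets that may hybridise to other transcripts.

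**Figure D2:**
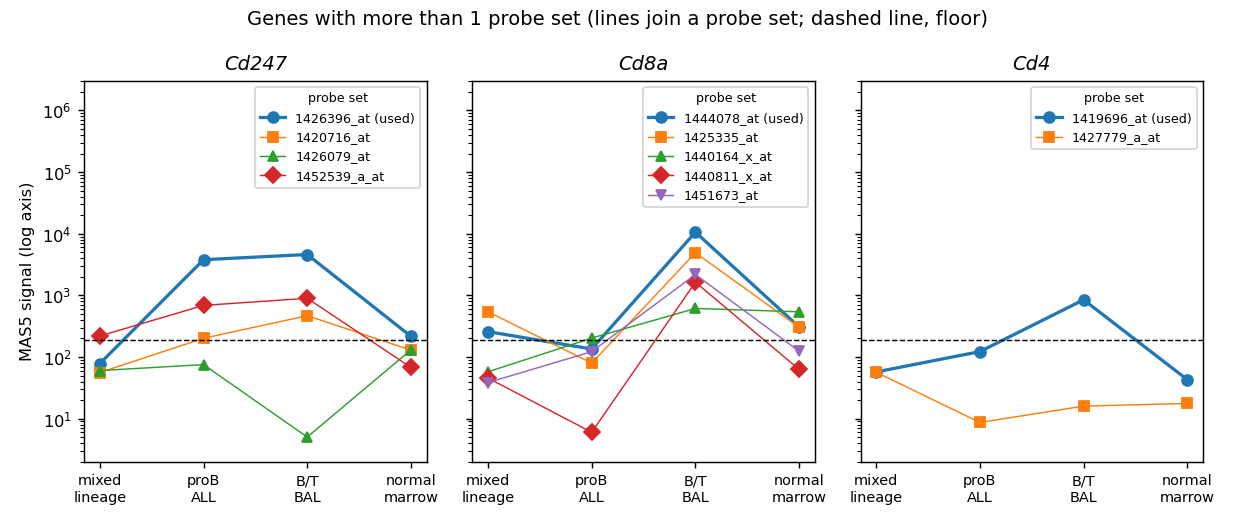
MAS5 signal (log axis) of every probe set of Cd247, Cd8a and Cd4 on the 4 arrays, with lines joining the values of 1 probe set, the one used drawn thicker, and the floor dashed. Most probe sets peak in B/T BAL, while 1426079_at of Cd247 and 1427779_a_at of Cd4 stay below the floor on all arrays.

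Thy1, a glycolipid-anchored surface protein, had 453 in mixed lineage leukemia, 28959 in the proB ALL and 54065 in B/T BAL, against 995 in normal marrow. It was 29.1-fold higher in the proB ALL and 54.3-fold higher in B/T BAL than in normal marrow, and 2.20-fold lower in mixed lineage leukemia. By its difference from normal marrow it ranked 14 from the top of 14012 genes in the proB ALL and 18 in B/T BAL. Cd5, a negative regulator of receptor signalling on T cells and some B cells, had 239.7 in mixed lineage leukemia, 128 in the proB ALL and 4297 in B/T BAL, against 299 in normal marrow. In contrast to Thy1, Cd5 was below the floor in the proB ALL and 14.4-fold higher in B/T BAL than in normal marrow.

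Against normal marrow, B/T BAL had all 10 genes at least 2-fold higher, against 15.4% of all genes tested, and 0 at least 2-fold lower, against 17.7%. The median log2 difference of the 10 was 4.83, beside 0.05 over all genes tested, with a range from 3.25 (Cd4) to 5.69 (Thy1). The value of Cd4 was taken against a normal signal below the floor, and it was 1.91 with dim signals set to the floor and 1.61 with the mean over its probe sets. In proB ALL 4 of the 10 were at least 2-fold higher (Cd3d, Cd3g, Cd247 and Thy1), against 11.3% of all genes tested, and 2 at least 2-fold lower (Cd3e and Cd8b1), against 18.7%. The median there was 0.40, beside -0.11 over all genes tested, and it lay between Cd4 at 0.88 and Ptcra at -0.08, both below the floor on these arrays. In mixed lineage leukemia 0 were at least 2-fold higher, against 18.8% of all genes tested, and 4 at least 2-fold lower (Cd3e, Cd247, Cd8b1 and Thy1), against 15.2%. Its median was -0.64, beside 0.08 over all genes tested. As ratios, with dim signals at the floor, Cd3e was at least 1.97-fold, Cd247 at least 1.15-fold and Cd8b1 at least 1.25-fold lower in mixed lineage leukemia than in normal marrow, and Cd3g, outside the count at a log2 difference of -0.91, was 2.02-fold lower with both signals above the floor. Among the lower calls Thy1 alone had both signals above the floor, and its log2 difference of -1.05 was -0.88 with a pseudocount at the 50th percentile and -0.92 with scaling to the 75th percentile, both under 2-fold. With dim signals set to the floor 1 gene was lower in mixed lineage leukemia and 0 in proB ALL.

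**Figure D3:**
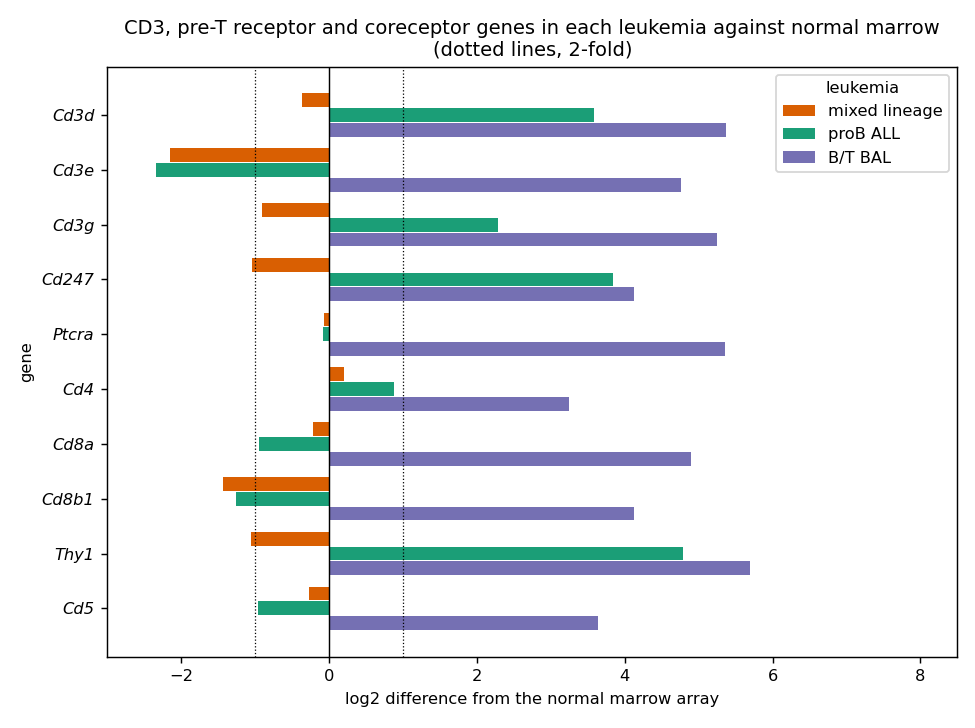
Log2 difference of each of the 10 genes from the normal marrow array in each of the 3 leukemias (bars, 1 array each, so no error bars), with dotted lines at 2-fold. The B/T BAL bars run from 3.25 (Cd4, against a normal signal below the floor) to 5.69, and the proB ALL bars point up for Cd3d, Cd3g, Cd247 and Thy1 and down for Cd3e and Cd8b1.

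B/T BAL and proB ALL, which both carried AF4-MLL, differed at 8 of the 10 genes by at least 2-fold, and among the 10 the log2 difference was largest at Cd3e. All 8 were higher in B/T BAL, against 15.9% of all genes tested, and 0 were at least 2-fold lower, against 10.5%. The median log2 difference was 3.77, beside 0.17 over all genes tested. Cd3e was at least 60.8-fold higher in B/T BAL than in proB ALL. Its log2 difference was 7.11, and 5.59 with dim signals set to the floor, since its proB ALL signal was below it. Cd8a was at least 56.2-fold and Cd8b1 at least 26.4-fold higher. For Ptcra the fold was at least 37.6, for Cd5 at least 22.8 and for Cd4 at least 4.50. Among the chains measured on both arrays, Cd3g was 7.84-fold and Cd3d 3.46-fold higher in B/T BAL than in proB ALL. Cd247 was 1.21-fold and Thy1 1.87-fold higher, both under 2-fold. With quantile normalization, which levels the brightest signals between arrays, the log2 difference of Thy1 was 0.20, against 0.90 as deposited. With no replicate array, whether such small differences exceed the spread between mice was not tested.

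**Figure D4:**
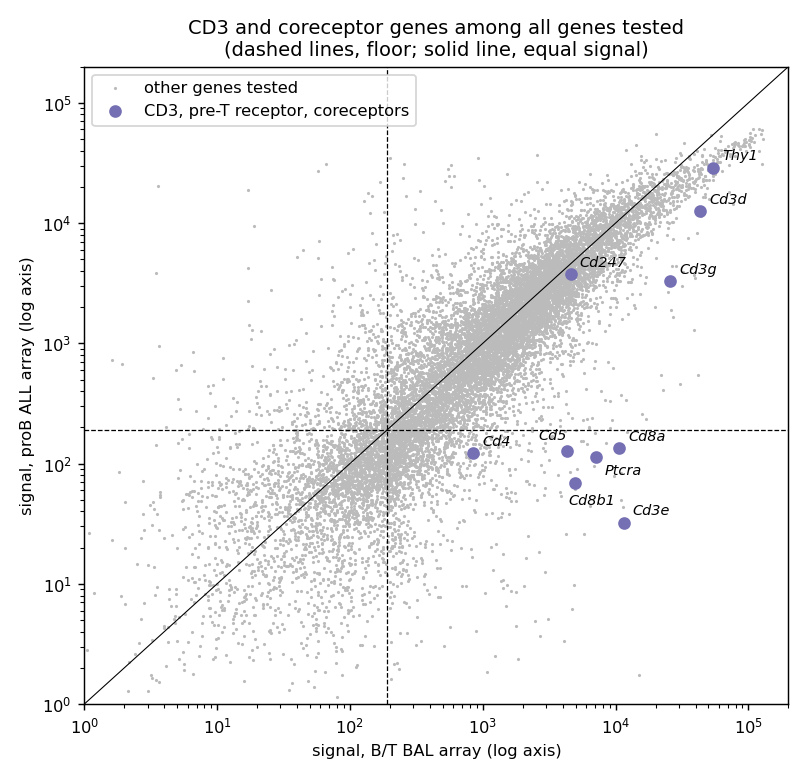
Signal on the proB ALL array against signal on the B/T BAL array (both log axes) for all 14012 genes tested (grey) and the 10 genes (purple), with the floor dashed and a solid line of equal signal. Cd247 lies by the line, Thy1, Cd3d and Cd3g lie right of it, and the other 6 genes lie above the floor on the B/T BAL array alone.

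Against the mixed lineage leukemia, all 10 genes were at least 2-fold up in B/T BAL, against 21.2% of all genes tested, and 0 at least 2-fold lower, against 26.3%, with a median log2 difference of 5.49 beside -0.08 over all genes. In proB ALL 4 of the 10 exceeded the mixed lineage leukemia at least 2-fold, against 15.7% of all genes tested, and 0 were at least 2-fold lower, against 27.3%, with a median of 0.42 beside -0.18. These were again Cd3d, Cd3g, Cd247 and Thy1, with Thy1 63.9-fold and Cd3d 16.4-fold higher. The highest fold of B/T BAL over the mixed lineage leukemia among genes measured on both arrays was that of Thy1, 119-fold, followed by Cd3g at 82.3-fold.

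With the 3 leukemias taken as 1 group against the normal array, none of the 10 genes passed the test. By limma with Benjamini-Hochberg adjustment, 0 of the 10 passed an adjusted p of 0.05, as with all genes tested, of which 0% passed as higher and 0% as lower. The adjusted p of each of the 10 was 0.9999, and 0 of the 10 passed at an unadjusted p under 0.05, where 0.314% of all genes were higher and 2.63% lower. The highest log2 difference by limma was that of Thy1, 3.14 (SE 2.25, 3 leukemias against 1 normal array), and the lowest that of Cd3e, 0.09 (SE 2.53). Thy1 was higher than in normal marrow in 2 of 3 leukemias and Cd3e in 1 of 3. The spread in this test is that between leukemias of different immunophenotype, and the single normal array took its spread from them. Without the proB ALL array 0 of the 10 passed an adjusted p of 0.05 and 4 were higher at an unadjusted p under 0.05 (Cd3d, Cd8a, Ptcra and Thy1), against 0.621% of all genes tested. Without the mixed lineage array 4 did so (Cd3d, Cd3g, Cd247 and Thy1), against 2.27%, and without the B/T BAL array 1 did so (Thy1), against 0.692%.

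Genes that relay or restrain signals from CD3 were mostly higher than normal marrow in both leukemias that carried AF4-MLL without MLL-AF4. Of 24 measured signalling genes, 14 were at least 2-fold higher and 1 lower in proB ALL than in normal marrow, 15 higher and 2 lower in B/T BAL, and 1 higher and 7 lower in mixed lineage leukemia, with medians of 1.53, 1.40 and -0.26. Of all genes tested, 11.3% were higher and 18.7% lower in proB ALL, and 15.4% and 17.7% in B/T BAL. In mixed lineage leukemia these shares were 18.8% and 15.2%. Zap70, the kinase that binds phosphorylated CD3 chains, had 136 in mixed lineage leukemia, 1850 in the proB ALL and 7311 in B/T BAL, against 616 in normal marrow. Lat, the membrane scaffold that Zap70 phosphorylates, had 106 in mixed lineage leukemia, 4436 in the proB ALL and 26453.5 in B/T BAL, against 765 in normal marrow. Zap70 and Lat were thus high on the arrays where Cd3d and Cd3g were high, with the limit that the Zap70 probe set is of the x kind. Themis, a signalling protein of developing T cells, had 75.7 in mixed lineage leukemia, 2170.4 in the proB ALL and 5412 in B/T BAL, against 271 in normal marrow. Sh2d2a, an adaptor of activated T cells and NK cells, was higher in proB ALL than in B/T BAL, with 43 in mixed lineage leukemia, 8057 in the proB ALL and 1626 in B/T BAL, against 59.7 in normal marrow. Syk, the kinase related to Zap70 that serves B and myeloid cells, had 6398 in mixed lineage leukemia, 4069 in the proB ALL and 1219 in B/T BAL, against 5435 in normal marrow. Lck had no probe set of 1 gene and was not analysed here.

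Other surface genes listed for T cells, not all of them particular to T cells, divided proB ALL from B/T BAL. Of 19 accessory surface genes, 11 were at least 2-fold higher and 1 lower in proB ALL than in normal marrow, 9 higher and 4 lower in B/T BAL, and 2 higher and 8 lower in mixed lineage leukemia. Cd2, an adhesion receptor of T and NK cells, had 932 in mixed lineage leukemia, 12388 in the proB ALL and 9782 in B/T BAL, against 746 in normal marrow. Cd28, the costimulatory receptor, had 231 in mixed lineage leukemia, 3044 in the proB ALL and 6020.1 in B/T BAL, against 322 in normal marrow. These leukemias, proB ALL and B/T BAL, thus stood above the other arrays at Cd2 and Cd28. Cd7, a surface protein of T and NK cells, had 517 in mixed lineage leukemia, 9369 in the proB ALL and 19 in B/T BAL, against 582 in normal marrow. Cd160, a receptor of NK and cytotoxic T cells, had 113 in mixed lineage leukemia, 6097 in the proB ALL and 842 in B/T BAL, against 531 in normal marrow. Cd7 and Cd160 were thus higher in proB ALL than in B/T BAL, where Cd7 was below the floor. Cd27 was higher in B/T BAL, with 54.3 in mixed lineage leukemia, 2000 in the proB ALL and 7067 in B/T BAL, against 324 in normal marrow. Of the 19, 4 were at least 2-fold higher in B/T BAL than in proB ALL and 8 lower, against 15.9% and 10.5% of all genes tested.

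Genes of early T-cell development were mostly higher in B/T BAL than in normal marrow. Of 19 such genes, 15 were at least 2-fold higher and 1 lower in B/T BAL than in normal marrow, against 7 higher and 7 lower in the proB ALL and 2 higher and 6 lower in mixed lineage leukemia. Bcl11b, a factor that fixes T-cell identity, had 370.3 in mixed lineage leukemia, 231 in the proB ALL and 9352 in B/T BAL, against 340.4 in normal marrow. Dtx1, a target of Notch signalling, had 409 in mixed lineage leukemia, 257 in the proB ALL and 15724 in B/T BAL, against 589 in normal marrow. Gata3, another early T-cell factor, had 76.1 in mixed lineage leukemia, 432 in the proB ALL and 2567 in B/T BAL, against 29.3 in normal marrow. Bcl11b and Dtx1 were high on the B/T BAL array alone, as Cd3e and Ptcra were, whereas Gata3 also exceeded the floor in proB ALL. Runx3, a factor of CD8 and NK cells, had 1054 in mixed lineage leukemia, 3235 in the proB ALL and 501 in B/T BAL, against 967 in normal marrow, and Tcf7 had no probe set of 1 gene. Zbtb7b, the 1 gene lower in B/T BAL, had 1168 in mixed lineage leukemia, 319 in the proB ALL and 655 in B/T BAL, against 1767 in normal marrow. Of 20 receptor chain gene names searched, 2 had such a probe set and 1 exceeded the floor, Trbv13-2, a beta chain variable gene, with 183 in mixed lineage leukemia, 79.7 in the proB ALL and 3712 in B/T BAL, against 204 in normal marrow.

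**Figure D5:**
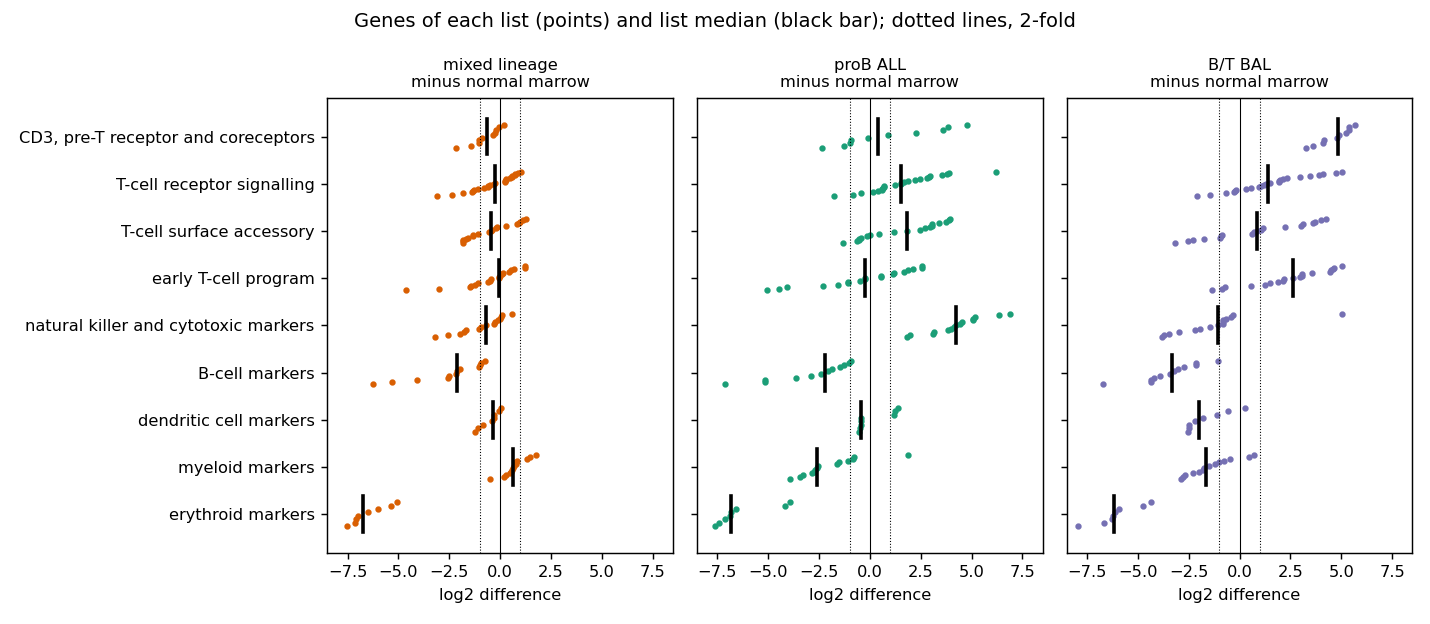
Log2 difference from normal marrow of every tested gene (points) of 9 gene lists in each of the 3 leukemias, with list medians as black bars and dotted lines at 2-fold. The 10 CD3, pre-T receptor and coreceptor genes lie from 3.25 (Cd4, against a normal signal below the floor) to 5.69 in B/T BAL, and the natural killer and cytotoxic list has a median of 4.24 in proB ALL.

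NK and cytotoxic genes were high beside Cd3d, Cd3g, Cd247 and Thy1 in proB ALL. The summed signal of the 15 genes was 12743 in mixed lineage leukemia, 276863 in the proB ALL and 54847 in B/T BAL, against 16515 in normal marrow. At least 2-fold apart from normal marrow, 0 of the 15 were higher and 6 lower in mixed lineage leukemia, 15 higher and 0 lower in the proB ALL, and 1 higher (Gzma, a granzyme) and 8 lower in B/T BAL. Ncr1, an NK receptor, had 96.9 in mixed lineage leukemia, 4694 in the proB ALL and 139 in B/T BAL, against 251 in normal marrow. Prf1, perforin, had 135 in mixed lineage leukemia, 1344 in the proB ALL and 215 in B/T BAL, against 310 in normal marrow. In B/T BAL 52157 of the summed signal was Gzma. Klrc1, another NK receptor, had 511 in mixed lineage leukemia, 20420.6 in the proB ALL and 3.61 in B/T BAL, against 550.3 in normal marrow. NK receptor genes were thus bright in proB ALL and dim in B/T BAL, whereas Cd3d and Thy1 were higher in B/T BAL than in proB ALL. Fcer1g and Tyrobp, which like Cd247 pair with NK receptors and also serve myeloid cells, were bright on all arrays, with 50214 and 63813 in mixed lineage leukemia, 24988 and 22971 in the proB ALL and 8587 and 8718 in B/T BAL, against 26812 and 34839 in normal marrow. The part of NK and cytotoxic cells in the signals of the 4 genes was not tested.

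The B-cell markers that the labels of proB ALL and B/T BAL call for were low. In the mixed lineage leukemia 9 of the 12 were at least 2-fold lower than in normal marrow, and in no leukemia was any at least 2-fold higher. Cd79a, a signalling chain of the B-cell receptor, had 994 in mixed lineage leukemia, 426 in the proB ALL and 216 in B/T BAL, against 1708 in normal marrow, and Ebf1 and Vpreb1 were below the floor in all 3 leukemias. The summed signal of the 13 measured B-cell markers was 19203 in mixed lineage leukemia, 28159 in the proB ALL and 22303 in B/T BAL, against 86653 in normal marrow. Most of it in proB ALL and B/T BAL was Ighm, the heavy chain of immunoglobulin M, with 9162 in mixed lineage leukemia, 21174 in the proB ALL and 19421 in B/T BAL, against 40104 in normal marrow. The Ighm probe set is of the s kind, which may bind other transcripts. The array is called proB ALL here by its label alone.

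Dendritic cells can carry CD4 or CD8 alpha. Of 8 tested dendritic cell markers, 0 were at least 2-fold higher in B/T BAL than in normal marrow and 6 were lower, and of 10 measured, 7 exceeded the floor in mixed lineage leukemia, 8 in the proB ALL and 6 in B/T BAL, against 8 in normal marrow. Their part in the Cd4 and Cd8a signals was not tested. Siglech, a receptor of plasmacytoid dendritic cells, had 561 in mixed lineage leukemia, 774 in the proB ALL and 148 in B/T BAL, against 1048 in normal marrow. Stromal genes, whose cells can carry Thy1, were uneven, with 4 of 10 at least 2-fold higher and 2 lower in B/T BAL than in normal marrow. Pdgfrb, a receptor of mesenchymal cells, had 461 in mixed lineage leukemia, 459 in the proB ALL and 30356 in B/T BAL, against 427 in normal marrow, and Col1a2, a collagen chain, had 826, 1285 and 38648.5 in these leukemias, against 2397 in normal marrow. Vcam1, 1 of the 2 lower in B/T BAL, had 7660 in mixed lineage leukemia, 4344 in the proB ALL and 988 in B/T BAL, against 10584 in normal marrow. In proB ALL 1 of the 10 stromal genes was higher and 6 lower, and the summed signal was 16281 in mixed lineage leukemia, 8270.3 in the proB ALL and 77786 in B/T BAL, against 20000.1 in normal marrow. In B/T BAL most of the summed stromal signal was Pdgfrb and Col1a2. The part of stromal cells in the Thy1 signal of B/T BAL was not tested. Erythroid markers, 8 of 8 at least 2-fold lower in each leukemia, had a summed signal of 2687 in mixed lineage leukemia, 4018 in the proB ALL and 3686 in B/T BAL, against 220168 in normal marrow. Myeloid markers had 577733, 121688 and 296271 in these leukemias, against 367226 in normal marrow. In B/T BAL most of this sum was S100a8, read from a probe set of the s kind, and S100a9. They had 96616 and 119234 there, against 69267 and 71927.5 in normal marrow. Of 14 myeloid markers, 0 were at least 2-fold higher and 10 lower in B/T BAL than in normal marrow. In proB ALL 1 was higher and 11 lower, and in mixed lineage leukemia 3 were higher and 0 lower.

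The genes whose pattern over the 4 arrays lay closest to those of Cd3d, Cd3e and Thy1 were sought by Euclidean distance between log2 values centred on each gene's mean. Closest to Cd3d was Trat1, an adaptor that associates with the T-cell receptor, at a distance of 0.67, with 27.2 in mixed lineage leukemia, 1588 in the proB ALL and 2907 in B/T BAL, against 59.4 in normal marrow. Next came Trgv1, a gamma chain variable gene, at 0.84 and Itm2a at 0.94. Closest to Thy1 were Itm2a at 0.56, Trgv1 at 0.61 and Gpr25 at 0.80. Itm2a, a membrane protein gene, had 421 in mixed lineage leukemia, 16407.5 in the proB ALL and 45614 in B/T BAL, against 661 in normal marrow. Trgv1 had 141 in mixed lineage leukemia, 6350 in the proB ALL and 12864.5 in B/T BAL, against 228 in normal marrow, and may share probes with other gamma variable genes. Closest to Cd3e were Smo, the Hedgehog signal transducer, at 0.63, Gfra1, a neurotrophic factor receptor, at 1.14 and Uaca at 1.33. Smo had 62.8 in mixed lineage leukemia, 79.1 in the proB ALL and 9694 in B/T BAL, against 427 in normal marrow, by a probe set of the s kind, which may bind other transcripts. Cd3e and Smo were below the floor in mixed lineage leukemia and proB ALL, so the distances and the order of the genes near Cd3e depend on dim signals. Near Cd3d and Thy1, Trat1 and Gpr25 were below the floor in mixed lineage leukemia and normal marrow, and Trgv1 in mixed lineage leukemia. Distances to these genes depend on dim signals too. Among the 10 genes themselves, Cd3d and Cd3g, above the floor on all 4 arrays, lay 1.01 apart. Such distances rest on 4 points and are given as a description.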

How the data were processed

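RNA from 4 samples was hybridised to 1 Affymetrix mouse array each. The deposited values are intensity values, linear signals per probe set. Per the submitters' processing notes they come from MAS5, with version and settings not given in the sources used here. Each group had 1 array and detection calls were not used, so the number of arrays limits the precision. Of 45101 probe sets, 64 controls were left out. Of the rest, 34945 carried 1 gene in the platform annotation, 932 several and 9160 none, and the last kinds were left out. Percentiles, floor and filter are given with the results. Single arrays were compared by counts past 2-fold, with no test. The leukemias were set against the normal array in limma 3.58.1, R 4.3.3 (lmFit, eBayes with intensity trend), tested on simulated data, with Benjamini-Hochberg adjustment at 0.05. Named are the 10 genes and all their probe sets, and the 3 genes closest in pattern to Cd3d, Cd3e and Thy1. Other named genes come from up to 4 genes per list with the widest range and from a fixed set of lineage genes. Not every gene that these last rules picked is given. Gzma, Ebf1, Ighm, S100a8 and S100a9 were named after their values were seen. Hcst was picked by neither rule and was named to complete its list of adaptors. The genes and lists were chosen with earlier results of these data known. Alternatives changed pseudocount, filter, floor, scaling, probe set choice, eBayes and the leukemias included.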

Additional observations from a re-analysis of the deposited data

Results flagged for a closer look

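Of the 10 genes, 4 were at least 2-fold higher than normal marrow in 1 leukemia or more and at least 2-fold lower in another, against the same normal array. The share of all genes tested that did so was not counted, so the 4 are given as a description. For each, the difference between leukemias was not tested, since every group had 1 array. Cd3e had log2 differences from normal marrow of -2.15 in the mixed lineage leukemia, -2.34 in the proB ALL and 4.77 in B/T BAL. Cd8b1 had -1.43, -1.26 and 4.13 in the same order of leukemias. In both, the lower leukemias lay below the floor. Cd247 had -1.05 in mixed lineage leukemia, also below the floor, 3.84 in the proB ALL and 4.12 in B/T BAL. Thy1 had -1.05 in mixed lineage leukemia, 4.79 in the proB ALL and 5.69 in B/T BAL, with all 4 signals above the floor, and its value in mixed lineage leukemia was under 2-fold in 2 alternatives, at -0.88 and -0.92.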

How the results depend on the processing

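Each count and median over the 10 genes was recomputed under 9 alternatives, and the limma count under 13. The count of genes higher stayed within 1.5 times its value in every comparison and alternative. The count of genes lower than normal marrow changed with the setting. In mixed lineage leukemia it was 4, but 1 with a pseudocount at the 50th percentile, 1 with dim signals set to the floor and 2 with scaling to the 75th percentile. Thy1 was lost under the first and the last of these, at -0.88 and -0.92. In proB ALL it was 2, but 1 with a pseudocount at the 50th percentile, 4 with one at the 10th, 0 with dim signals set to the floor and 4 with scaling to the 75th percentile. With a floor and filter at the 75th percentile Cd4 dropped out, and over the remaining 9 genes the median log2 difference of proB ALL from normal marrow was -0.0772, against 0.40 over the 10, and that of B/T BAL from proB ALL was 4.60. With a pseudocount at the 50th percentile the median of B/T BAL against mixed lineage leukemia was 4.59, since a larger pseudocount shrinks differences. By limma 0 of the 10 passed an adjusted p of 0.05 under all 13 alternatives, leave-one-out fits included, where the counts ranged from 0 to 0. Over all genes limma made 0 adjusted calls, but 15 with a pseudocount at the 50th percentile, 23 with robust eBayes, 71 without proB ALL and 113 without B/T BAL. Scaling to the 75th percentile moved the median over all genes tested to 0.23 for mixed lineage leukemia against normal marrow, from 0.08, and to -0.42 for proB ALL against mixed lineage leukemia, from -0.18. No paired analysis was possible because each group held 1 array. Signals below the floor have no reliable order.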

Other observations

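Stem and progenitor markers were mostly lower than in normal marrow in the proB ALL and B/T BAL, and uneven in mixed lineage leukemia. Of 7 tested, 1 was at least 2-fold higher and 3 lower than normal marrow in mixed lineage leukemia, 0 higher and 5 lower in the proB ALL, and 0 higher and 7 lower in B/T BAL. The progenitor marker Cd34 had 244 in mixed lineage leukemia, 175 in the proB ALL and 252 in B/T BAL, against 1641 in normal marrow. Gata2, the 1 higher in mixed lineage leukemia, had 2925 there, 285 in the proB ALL and 532 in B/T BAL, against 1270 in normal marrow. Of 5 signalling adaptors outside CD3 (Fcer1g, Tyrobp, Hcst, Cd79a and Cd79b), 1 was at least 2-fold higher and 0 lower in mixed lineage leukemia, 1 higher and 2 lower in the proB ALL, and 0 higher and 4 lower in B/T BAL. B/T BAL had 10 of 10 CD3, pre-T receptor and coreceptor genes at least 2-fold above normal marrow, against 15.4% of all genes tested. Of these other adaptors, 4 of 5 were at least 2-fold below normal marrow, against 17.7%. Of the 10, Ptcra and Cd4 had passed the filter through the B/T BAL array alone. Lef1, a factor of early T cells, had 222 in mixed lineage leukemia, 3199 in the proB ALL and 16719 in B/T BAL, against 687 in normal marrow, so that it was high on the same arrays as Cd3d. These differences were not tested.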
